A study of Homo sapiens with 2 samples.

Results

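Genes of the ATP-binding cassette (ABC) family were compared between MM.1S myeloma cells cultured with plasmacytoid dendritic cells (pDCs) and MM.1S cells cultured alone. They were taken as all probe sets that the array annotation assigned to exactly 1 gene symbol beginning with ABCA to ABCG and a number, without pseudogenes. This gave 92 of 54675 probe sets and 41 of 19775 genes, chosen by name and not by signal. Left out were 7 probe sets of 4 pseudogenes and 2 probe sets that bind an ABC gene and another gene. MM.1S is an established human multiple myeloma line, so each culture is a model of 1 clone. Total RNA was hybridised to Affymetrix HG-U133 Plus 2.0 arrays, with 1 array for MM.1S with pDCs and 1 array for MM.1S alone. The source of the pDCs, their number, and whether they were removed before RNA extraction were not stated in the labels. No value below has a replicate error, and no test was possible.

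ABC proteins bind and hydrolyse ATP, and most use that energy to move a substrate across a membrane. The family is known in cancer for pumps that expel drugs, above all ABCB1 (P-glycoprotein), ABCC1 (MRP1) and ABCG2 (BCRP), and myeloma drugs such as anthracyclines and vinca alkaloids are among their substrates. Other members carry cholesterol and phospholipids, serve mitochondria or peroxisomes, or, in the ABCE and ABCF subfamilies, have no membrane part and act in translation.

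Signals on these arrays are linear MAS5 values without a physical unit. The median signal of each array, 115.9 with pDCs and 124.0 alone, was used as a floor, and a lower signal was set to it. Each gene is represented by the probe set whose mean log2 signal over both arrays was highest. The log2 ratio is MM.1S with pDCs minus MM.1S alone, and where only 1 array exceeded its floor the ratio is a bound, written as at least. A difference of 2-fold was the threshold of size. The only internal measure of error was the disagreement between probe sets of 1 gene: over 4844 genes read by at least 2 probe sets that exceeded both floors, log2 ratios of the same gene had a pooled SD of 0.48, and over 7 ABC genes it was 0.50. That SD includes differences between transcript variants and covers no spread between cultures.

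Cell identity was checked with marker genes. All 8 plasma cell markers were above the floor on both arrays, and none passed 2-fold (median log2 ratio -0.26). SDC1 had a signal of 10177 with pDCs and 10503 alone, IRF4 11634 and 11111, XBP1 31891 and 44501, and CD38 1060.2 and 1686. Of 10 pDC markers, 7 exceeded the floor on 1 or both arrays, and the list's summed signal was 5636 with pDCs and 7118 alone. The defining pDC markers CLEC4C and IL3RA were below the floor on both arrays, LILRA4 had 306 with pDCs and 256 alone, and NRP1 35.0 and 146. Of this list, 2 genes passed 2-fold, both lower: GZMB had 174 with pDCs and 604 alone, and TLR9 111 and 259.7. TLR7 was at least 1.71-fold higher, with 213 with pDCs and 96.2 alone, and TCF4, with 3569 and 4400.5, made up most of the sum. GZMB, TLR9, TLR7, TCF4, TRAT1, PPBP and HBB are named after their values were seen. Monocyte markers had a summed signal of 526 with pDCs and 1409 alone, over 6 measured genes that were each above the floor on at least 1 array. Of 6 T cell markers, 4 were below the floor on both arrays, among them CD3D and CD3E, and the sum was 1527 with pDCs and 938 alone, most of it from TRAT1, which was 2.01-fold higher (1265 with pDCs and 630.1 alone). Of 5 measured erythroid and platelet markers, 2 were below the floor on both arrays, and the sum was 2324 with pDCs and 3252 alone. PPBP carried that difference, with 30.6 with pDCs and 957 alone, while HBB had 2042 and 1809. The arrays also differed in the 3' to 5' signal ratio, a measure of RNA integrity, which was 8.09 with pDCs and 19.5 alone for ACTB control probe sets, and 2.46 and 3.07 for GAPDH. The part of these differences in the ABC values was not tested.

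Across the family, read on the probe set that represents each gene, the drug exporters ABCC1 and ABCC4 moved in opposite directions. On that reading the sterol exporters ABCA1 and ABCG1 were both lower with pDCs, and ABCG2 had a log2 ratio of -0.10. A second ABCA1 probe set was not lower (log2 ratio 0.12). The other ABCC4 probe sets each crossed the floor, and of these 1 pointed higher, 1 lower and 1 gave no ratio. Of 41 genes, 23 (56.1%) exceeded the floor on 1 or both arrays, against 72.9% of all genes, and 20 exceeded both. With pDCs, 2 of the 23, ABCC4 and ABCC9, were at least 2-fold higher, beside 3.17% of all genes above the floor. With pDCs, 2 of the 23, ABCA1 and ABCC1, were at least 2-fold lower, beside 4.51% of all genes. ABCG1 lay just inside the threshold at 1.99-fold lower. The median log2 ratio of the 23 genes was 0.01 (range -1.43 to 1.09), beside -0.04 over all genes. The sign of the family's median was not stable: it was -0.16 over the 20 genes that exceeded both floors. Counted by probe set, 44 of 92 exceeded the floor on 1 or both arrays. Of these, 3 were at least 2-fold higher with pDCs, beside 4.19% of all probe sets with 1 symbol, and 4 were at least 2-fold lower, beside 4.67%.

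**Figure D1:**
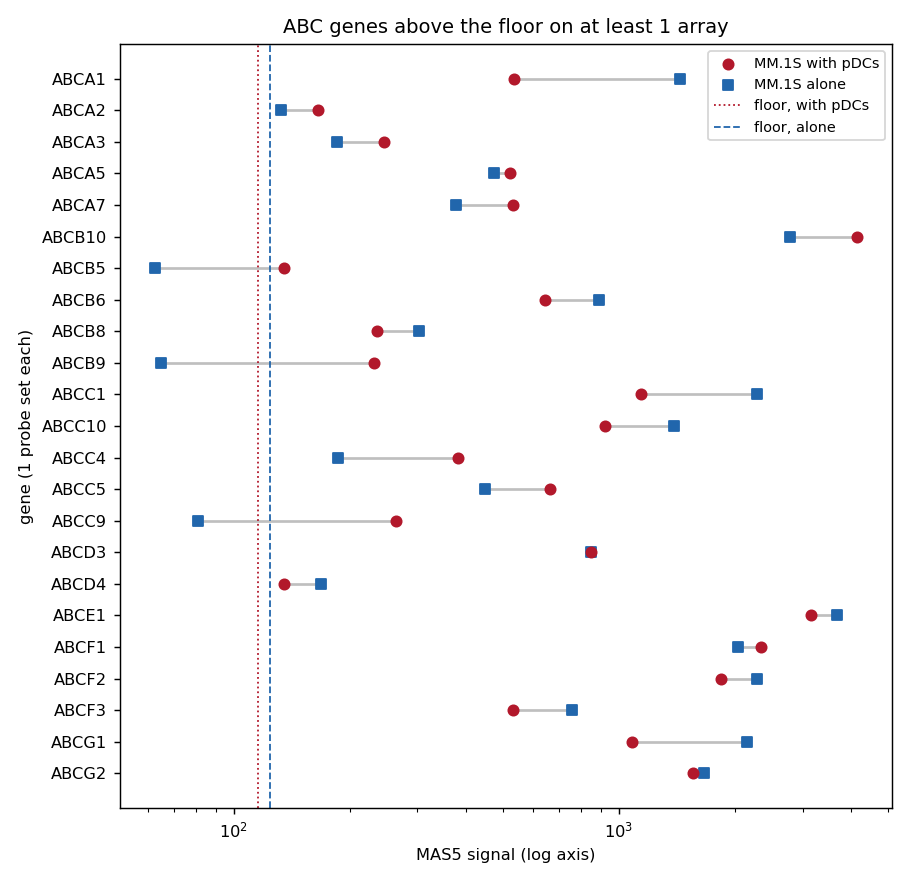
MAS5 signal (log axis) of the 23 ABC genes above the floor on at least 1 array, 1 probe set per gene. Circles are MM.1S with pDCs, squares MM.1S alone, and the vertical lines are the floors of 115.9 with pDCs and 124.0 alone. ABCA1, ABCC1 and ABCG1 lie left of their squares by the widest gaps among genes lower with pDCs, and ABCB5, ABCB9 and ABCC9 cross the floor.

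The drug exporters were examined first, since the title of the series asks how pDCs make myeloma cells resistant to drugs. Of 10 measured exporters, 5 (ABCC1, ABCC4, ABCC5, ABCC10 and ABCG2) were above the floor on both arrays and 5 (ABCB1, ABCC2, ABCC3, ABCC11 and ABCC12) were represented by a probe set below it on both. ABCC4 was higher by more than 2-fold, ABCC1 was lower by 2-fold, and the other 3 did not reach it. The median log2 ratio of the 5 was -0.10, and that of the 18 other ABC genes with a ratio was 0.07, a difference of -0.16. This order was not stable: without x_at and s_at probe sets, which can bind several transcripts, the exporters had 0.25 and the others -0.04. Over genes that exceeded both floors it was reversed as well, with -0.10 for the 5 exporters and -0.22 for 15 others. No difference of the exporters from the rest of the family was tested.

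ABCC1, which exports glutathione and glucuronide conjugates and anthracyclines, had a signal of 1141 with pDCs and 2284 alone, 2.00-fold lower. Its other probe set gave 143 with pDCs and 251 alone, a log2 ratio of -0.82, so both pointed the same way. ABCC1 fell short of 2-fold after median centring (-0.97) and with the mean over probe sets (-0.91). Of all genes with a ratio, 4.52% were as low as ABCC1 or lower. ABCC10 (MRP7), a pump for taxanes and vinca alkaloids, had 921 with pDCs and 1394 alone, a log2 ratio of -0.60, and its other probe set, with 645 against 791, had -0.29. Neither ABCC10 probe set passed 2-fold, and neither lay outside the other's direction.

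ABCC4 (MRP4), which exports cyclic nucleotides, prostaglandins and nucleoside drugs, had a signal of 384 with pDCs and 186 alone, 2.06-fold higher. Of all genes with a ratio, 97.2% were at or below it. Its 3 other probe sets each crossed the floor. Signals of 151 with pDCs and 64.4 alone gave a log2 ratio of at least 0.28, and 118 with pDCs and 49.6 alone gave no ratio, since the floor for MM.1S alone was higher than both. The last probe set pointed the other way, with 8.58 with pDCs and 125 alone. With a floor at the 70th percentile of each array, ABCC4 fell short of 2-fold (log2 ratio 0.41 or more). Averaging the log2 signals of all 4 probe sets before the floor left ABCC4 without a ratio. ABCC5 (MRP5), a pump of cyclic nucleotides and nucleotide analogues, was higher with pDCs on all 3 of its probe sets, which exceeded both floors, without passing 2-fold. Its signals were 663 with pDCs and 448 alone, 322 and 212, and 199 and 174, which gave log2 ratios of 0.56, 0.60 and 0.19.

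The bases before the start of ABCC4 are shown because it was the only drug exporter past 2-fold on the higher side. They are the 250 bases upstream of the RefSeq start at chr13:95301452-95301701 (GRCh38.p14, minus strand), written 5' to 3', with capitals for the core of the antioxidant response element.
ABCC4: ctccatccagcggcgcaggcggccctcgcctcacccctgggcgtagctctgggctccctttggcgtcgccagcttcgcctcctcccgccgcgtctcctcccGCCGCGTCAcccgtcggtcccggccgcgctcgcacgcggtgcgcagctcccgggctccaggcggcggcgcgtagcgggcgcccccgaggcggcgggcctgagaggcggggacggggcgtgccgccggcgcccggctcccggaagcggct
The antioxidant response element is the sequence bound by NRF2, the factor of the oxidative stress response. Its core was searched as TGACNNNGC on both strands. The match in ABCC4 is on the opposite strand, from 149 to 141 bases before the start. The core occurred in this window in 9 of 33 ABC genes with an entry (27.3%) and in 13.2% of all 27305 genes. The ABC genes that held it were ABCA2, ABCA3, ABCB6, ABCB9, ABCC4, ABCC10, ABCD4, ABCF1 and ABCG4. Of these, ABCC4 was the only one past 2-fold, and ABCC10, ABCB6 and ABCD4 had negative log2 ratios of -0.60, -0.47 and -0.32. ABCB9 (at least 0.90), ABCA3 (0.40), ABCA2 (0.32) and ABCF1 (0.20) had positive ones, and ABCG4 had no ratio. ABCC1 and ABCG1 were among 8 members without an entry.

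ABCG2, the breast cancer resistance protein, had 1558 with pDCs and 1665 alone on its only probe set, a log2 ratio of -0.10. ABCB1, the P-glycoprotein gene, was near or below the floor on both of its probe sets. The one with the higher mean had 48.1 with pDCs and 104 alone, below the floor on both arrays. The other had 13.3 with pDCs and 197 alone, at least 1.70-fold lower. ABCC2 and ABCC3, exporters of conjugated bilirubin and bile salts in liver and gut, and ABCC11 and ABCC12, which lie next to each other on chromosome 16, had no probe set above the floor on either array. ABCC3 was read by 5 probe sets, and its signals were at most 67.5 with pDCs and 112 alone.

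**Figure D2:**
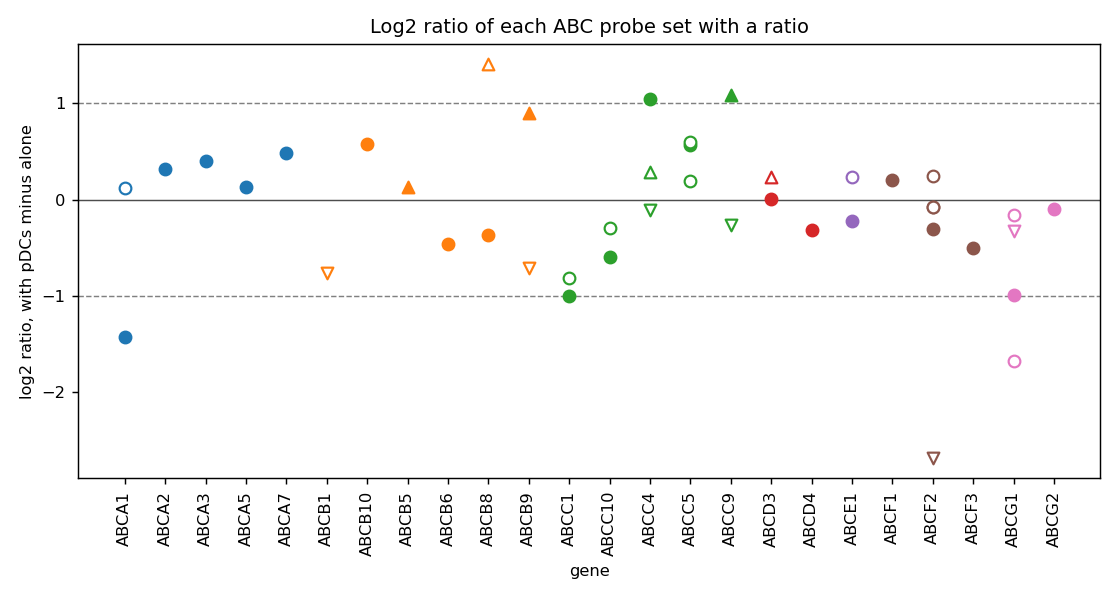
Log2 ratio (MM.1S with pDCs minus MM.1S alone) of each ABC probe set that had a ratio, by gene. Filled symbols are the probe set that represents the gene, open symbols its other probe sets, circles are above the floor on both arrays, and triangles are bounds that point to where the true ratio lies; colours mark subfamilies and dashed lines 2-fold. ABCC1, ABCC5, ABCC10 and ABCG1 keep 1 direction over their probe sets, while ABCA1, ABCB8, ABCB9, ABCC4, ABCC9, ABCE1 and ABCF2 show both.

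Of 12 sterol and phospholipid members, 5 exceeded the floor; 1 was lower by 2-fold, 0 were higher, and the median log2 ratio was 0.32. Within them the cholesterol exporters ABCA1 and ABCG1 were lower on the probe sets that represent them, but the ABCA1 probe sets disagreed. ABCA1 hands cholesterol and phospholipid to lipid-poor apolipoprotein A-I, ABCG1 passes cholesterol to lipoprotein particles, and both genes are induced by the liver X receptors (LXRs), nuclear receptors that sense oxysterols. ABCA1 had a signal of 535 with pDCs and 1438 alone, 2.69-fold lower. Only 1.12% of genes with a ratio were as low. A second ABCA1 probe set did not share the difference, with 544 with pDCs and 501 alone (log2 ratio 0.12), and its 2 remaining probe sets were below the floor on both arrays. Averaging the log2 signals of all 4 probe sets before the floor gave a log2 ratio of -0.80 or lower, a bound short of 2-fold.

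ABCG1 had 1080.3 with pDCs and 2149 alone, 1.99-fold lower, and 4.66% of genes were as low or lower. All 3 other ABCG1 probe sets were lower with pDCs as well. They had 256 with pDCs and 821 alone (log2 ratio -1.68), 512 and 571 (-0.16), and 16.0 and 146 (-0.33 or lower). ABCG1 passed 2-fold after quantile normalization (-1.01), after loess (-1.02), with the mean over probe sets (-1.51) and without x_at and s_at probe sets (-1.68).

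The bases before the start of ABCA1 are shown because it had the lowest ratio of the 23 genes. They lie at chr9:104928156-104928405 (RefSeq, GRCh38.p14, minus strand), and capitals mark a direct repeat of a motif bound by nuclear receptors.
ABCA1: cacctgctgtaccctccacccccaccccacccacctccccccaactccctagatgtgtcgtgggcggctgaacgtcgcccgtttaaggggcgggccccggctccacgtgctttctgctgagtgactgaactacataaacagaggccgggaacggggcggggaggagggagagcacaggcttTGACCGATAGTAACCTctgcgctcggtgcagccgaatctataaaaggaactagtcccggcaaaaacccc
The repeat was searched as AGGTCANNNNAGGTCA on both strands, with at most 1 mismatch in each copy of the motif, which is the arrangement that LXRs bind with their partner RXR. In ABCA1 it reads on the opposite strand, from 69 to 54 bases before the start. Of 27305 genes, 1.47% held such a match in the same window, and among 33 ABC genes it occurred in ABCA1 and in ABCD2, a gene below the floor on both arrays.

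The sterol partner list, 11 genes of sterol uptake, transport and oxysterol response, split by gene. Of the 10 above the floor on at least 1 array, APOE was more than 2-fold lower, CYP27A1 was at least 2-fold higher, and the other 8 did not pass (median log2 ratio 0.15). APOE, which encodes the lipoprotein component apolipoprotein E, had 135 with pDCs and 432 alone on the probe set that represents it. A second APOE probe set, with 298 with pDCs and 177 alone, had the opposite direction (log2 ratio 0.76). CYP27A1, the mitochondrial sterol 27-hydroxylase, had 259 with pDCs and 43.2 alone, at least 2.09-fold higher on its only probe set.

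The LXR target genes MYLIP and LPCAT3 lay close to the threshold and are named after their values were seen. MYLIP, a ligase that marks the LDL receptor for degradation, had 584 with pDCs and 1158 alone (log2 ratio -0.99). Another 4 MYLIP probe sets exceeded both floors and were lower too, from -0.09 to -0.77. LPCAT3, a phospholipid remodelling enzyme, had 421 with pDCs and 841 alone, just short of 2-fold lower, and a second LPCAT3 probe set had a log2 ratio of -0.24. SREBF1, another LXR target and a regulator of lipid synthesis, had 1149 with pDCs and 1183 alone (-0.04), although its other probe set had 64.2 against 495. NR1H3, which encodes LXR alpha, was near the floor, with 126 with pDCs and 65.9 alone. Sterol handling genes outside this group, named likewise, were slightly higher on the probe sets that represent them. NPC1 had 0.43, LIPA 0.37, NPC2 0.26 and SCARB1 0.25. Other NPC1 probe sets had bounds on both sides, at least 0.31 and -0.54 or lower. Macrophages express ABCA1 and ABCG1 abundantly, and the monocyte markers were mostly lower with pDCs: LYZ was at 17.0 with pDCs and 711 alone, and CD14 at 26.9 and 139. Of the 5 monocyte markers with a ratio, 4 were negative and 1 was positive. The part of these markers in the ABCA1 and ABCG1 difference was not tested. The higher marker signals were on the array of MM.1S alone, a culture without added cells by its title, and their source there was not tested. The other LYZ probe set was below the floor on both arrays, with 74.0 with pDCs and 114 alone. With pDCs, a smaller share of MM.1S cells and less RNA per cell cannot be told apart in such bulk RNA.

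**Figure D3:**
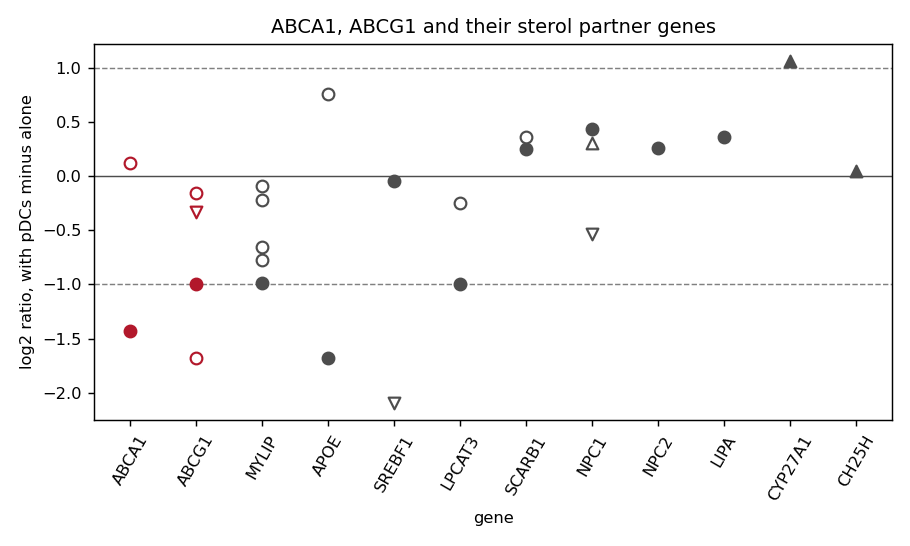
Log2 ratio (MM.1S with pDCs minus MM.1S alone) of ABCA1 and ABCG1 (red) and of the sterol partner genes with a ratio (grey), with all their probe sets. Filled symbols represent the gene, open symbols are its other probe sets, circles are above the floor on both arrays, triangles are bounds and dashed lines mark 2-fold. All points of ABCG1, MYLIP, LPCAT3 and SREBF1 lie below 0, and those of ABCA1, APOE and NPC1 lie on both sides.

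The other ABCA genes above the floor differed in direction from the probe set that represents ABCA1. ABCA2, ABCA3, ABCA5 and ABCA7 were all slightly higher with pDCs, with log2 ratios of 0.32, 0.40, 0.14 and 0.49, and none passed 2-fold. ABCA7, a relative of ABCA1 that acts on phospholipids and in phagocytosis, had 530 with pDCs and 379 alone. ABCA3, the surfactant lipid transporter of lamellar bodies, had 246 with pDCs and 186 alone, ABCA2, a transporter of endolysosomes, had 165 and 133, and ABCA5 had 521 and 475. Each of these values rests on 1 probe set above the floor. The remaining ABCA4, ABCA6, ABCA8, ABCA9, ABCA12 and ABCA13 were below the floor on both arrays. ABCA8, ABCA9 and ABCA6 lie in a row on chromosome 17, where the nearby ABCA5 was above the floor on both arrays.

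In the ABCB subfamily no gene passed 2-fold with the floor at the array median, and all 3 mitochondrial members exceeded both floors, with a median log2 ratio of -0.36. ABCB10, a heme and iron-related transporter of the mitochondrial inner membrane, had 4160.3 with pDCs and 2779 alone, a log2 ratio of 0.58. ABCB6, a porphyrin transporter counted here as mitochondrial, had 644 with pDCs and 889 alone (-0.47). ABCB8, a mitochondrial transporter with a role in iron export, had 236 with pDCs and 304 alone (-0.36). Its other probe set disagreed, with 330.3 with pDCs and 117 alone, at least 2.66-fold higher, so no direction is given for ABCB8.

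ABCB9, a lysosomal peptide transporter related to TAP, had 231 with pDCs and 64.7 alone, at least 1.86-fold higher. A further ABCB9 probe set pointed the other way, with 25.8 with pDCs and 189 alone. ABCB5 crossed the floor at 135 with pDCs and 62.5 alone. Both calls depend on the floor: at the 30th percentile ABCB9 had a log2 ratio of 1.84 and ABCB5 of 1.11, past 2-fold. The other ABCB5 probe sets were below the array medians on both arrays and had lower signals with pDCs. They had 18.6 with pDCs and 100 alone, 6.04 and 56.8, and 1.99 and 59.4. ABCB4 and ABCB11, canalicular transporters of phosphatidylcholine and bile salts in liver, were below the floor on both arrays. The iron-sulfur and heme partner list, with 12 genes measured, had no member past 2-fold, 6 positive and 6 negative (median -0.01). Its members with the highest signals were ISCU, the scaffold for iron-sulfur clusters, with 28208 with pDCs and 49149 alone, and TMEM14C, a porphyrinogen transporter, with 10449 and 14212.

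Of the channel-type members of the ABCC subfamily, ABCC9, the SUR2 regulatory subunit of ATP-sensitive potassium channels, had 264 with pDCs and 80.7 alone, at least 2.13-fold higher. Another ABCC9 probe set, with 107 with pDCs and 139 alone, pointed the other way, and the 3 remaining probe sets were below the floor on both arrays. The ABCC9 ratio turned to -0.26 or lower when x_at and s_at probe sets were left out. ABCC8, the SUR1 subunit of pancreatic beta cells, was below the floor on both arrays.

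No peroxisomal or translation member passed 2-fold on its representative probe set. ABCD3, which imports branched-chain acyl groups into peroxisomes, had 849 with pDCs and 845 alone, a log2 ratio of 0.01. ABCD4, a lysosomal cobalamin exporter, had 135 with pDCs and 169 alone (-0.32), and ABCD2 was below the floor on both arrays. None of 10 measured peroxisome partner genes passed 2-fold (7 positive, 3 negative, median 0.06). LMBRD1, the lysosomal cobalamin partner of ABCD4, had 3844 with pDCs and 2994 alone, and HSD17B4, an enzyme of peroxisomal beta-oxidation, had 3799.5 and 2255.

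ABCE1, which splits ribosomes after termination, had 3162 with pDCs and 3693 alone, a log2 ratio of -0.22. Its other probe set had 2674 with pDCs and 2269 alone (0.24), so ABCE1 showed no direction. ABCF1, a regulator of translation initiation, had 2342 with pDCs and 2037 alone (0.20), and ABCF3 had 532 and 756 (-0.51). ABCF2 had 1843 with pDCs and 2283 alone (-0.31). Of the 4 other ABCF2 probe sets, 3 had log2 ratios of -0.08 to 0.24, while 1 had 91.5 with pDCs and 750.0 alone, at least 6.47-fold lower and the lowest of all ABC probe sets with a ratio. None of the 11 ribosome recycling partner genes passed 2-fold (5 positive, 6 negative, median -0.07). MCTS1, which helps to release the small ribosomal subunit, had 8367 with pDCs and 11261 alone, and EIF3J, a recycling partner of ABCE1, had 7445 and 7800.2. In the ABCG subfamily, ABCG4, ABCG5 and ABCG8 were below the floor on both arrays; ABCG5 and ABCG8, neighbours on chromosome 2, encode the paired sterol exporter of liver and gut.

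**Figure D4:**
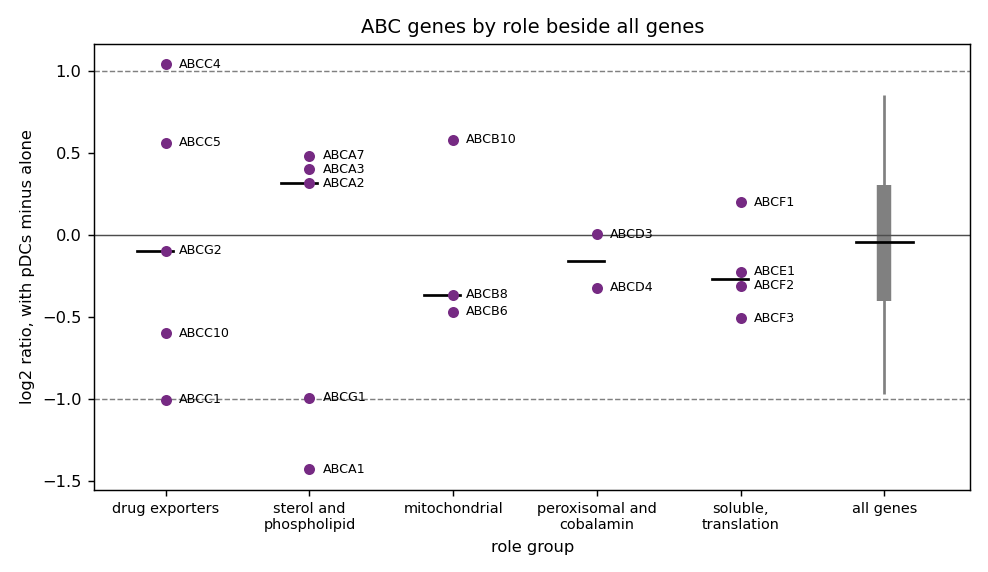
Log2 ratio (MM.1S with pDCs minus MM.1S alone) of ABC genes in 5 role groups, with black lines at group medians, beside all genes above the floor (thick bar over the middle quartiles, thin line over the range without the lowest and highest 5%, black line at the median). The drug exporters spread from ABCC1, 2.00-fold lower, to ABCC4 at 1.04, and ABCA1 at -1.43 is the lowest point.

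The 18 genes whose representative probe set was below both floors have no gene ratio, although ABCB1 had a bound on its other probe set, given above. Among them, ABCG4, expressed mainly in brain, came nearest to it, with 103 with pDCs and 112 alone, and ABCA13 had 101 with pDCs and 40.6 alone on 1 of 3 probe sets. ABCG8 had 14.7 with pDCs and 14.8 alone, ABCG5 60.9 and 7.34, and ABCD2, a peroxisomal importer of very long-chain acyl groups, 8.50 and 48.6. These signals lie where the arrays give no order.

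Subfamily medians rest on few genes. The median log2 ratio was 0.32 for ABCA (5 genes), 0.13 for ABCB (5), 0.56 for ABCC (5), -0.16 for ABCD (2), -0.31 for ABCF (3) and -0.54 for ABCG (2), and ABCE has 1 gene. The value for ABCC is not a direction of the subfamily: the median was -0.02 over the 4 genes that exceeded both floors, and with the mean over probe sets -0.45. Over the family, 12 genes had at least 2 probe sets with a ratio; in 5 all had the same sign, and in 7 the signs differed.

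ABC proteins under other symbols and genes that act with the family were read from lists. TAP1 and TAP2 form the transporter that loads antigenic peptides into the endoplasmic reticulum. TAP1 had 3484 with pDCs and 4132 alone (log2 ratio -0.25). TAP2 had 1312 with pDCs and 1639 alone (-0.32), with -1.04, -0.66 and at least 0.23 on its other probe sets. CFTR, the chloride channel, was below the floor on all 6 probe sets.

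Of 13 measured regulators of ABC genes, 12 were above the floor, 9 with a positive and 3 with a negative log2 ratio (median 0.21). NFE2L2, which encodes NRF2, was the only one past 2-fold, with 2845 with pDCs and 1014 alone (2.80-fold higher). Another NFE2L2 probe set had 50.1 with pDCs and 176 alone, the opposite direction. None of the 17 genes of glutathione supply and conjugation, which make the conjugates that ABCC pumps export, passed 2-fold (7 positive, 10 negative, median -0.10). The members with the highest mean signal over both arrays were GSTO1, a glutathione transferase of the omega class, with 10237 with pDCs and 12128 alone, and GSTP1, the pi class form, with 9015 and 13017.

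Promoter composition of the ABC genes differed with their detection on the arrays, and whether this is particular to the family was not tested. The 250 bases before the start had a median GC content of 67.0% in 20 ABC genes above the floor (range 46.0% to 80.4%) and 46.4% in 13 ABC genes below it on both arrays (range 39.2% to 70.8%), beside 58.0% over all genes. For GC content, genes with several starts, 10 of the 33, entered with their mean. For motifs, a gene counted if any of its starts had a match. All genes here are the 27305 with a promoter entry, not the 19775 on the arrays, and they were not split by detection. Searched on both strands, the GC box (GGGCGG) was present in 63.6% of ABC genes and 46.2% of all genes, the CCAAT box (CCAAT) in 30.3% and 37.0%, and the E box (CACGTG) in 24.2% and 7.73%. These shares describe sequence and carry no test.

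**Figure D5:**
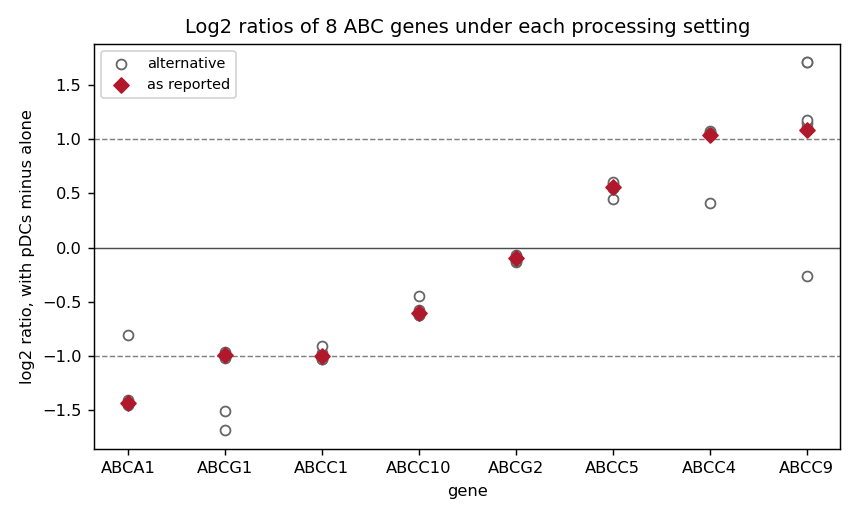
Log2 ratio (MM.1S with pDCs minus MM.1S alone) of 8 ABC genes as reported (filled diamonds) and under each alternative of the processing that gave a value (open circles), with dashed lines at 2-fold. ABCA1, ABCG1, ABCC1 and ABCC10 stay below 0 and ABCC4 and ABCC5 above 0 under every setting shown, while ABCC9 spans -0.26 to 1.71. ABCC4 and ABCC9 have no circle for the mean over probe sets, which gave them no ratio. Where they gave a value, all settings but that mean read ABCA1, ABCC1, ABCC4 and ABCC10 through the same probe set for each gene. The sign of ABCC4 here therefore rests only on the probe set that represents it.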

How the data were processed

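RNA of 1 MM.1S culture with pDCs and 1 MM.1S culture alone was measured. The authors deposited 1 linear intensity per probe set and array, with MAS5 as the tool, per the submitters' processing notes, which name neither its version nor a background step and came without detection calls. Both arrays had a mean of 500.1 after trimming 2% at each end, so a shift shared by most transcripts is scaled away. Groups come from the sample titles. Probe sets were named through the platform annotation: 41091 had 1 symbol, 1801 several, 11721 none and 62 were controls, and 41037 were matched to RefSeq, with 0 symbols updated. Replicates, tests and error models were not available, and precision is limited by having 1 array a group. Counts past 2-fold use floors at the array medians; bounds enter medians at their bound. Some items are not reported here. Members and lists were chosen with earlier results of these data known. All ABC genes above the floor were named; of partner lists, up to 4 genes past 2-fold or otherwise the 2 with the highest signal. Alternatives were median centring, quantile normalization, loess (span 0.3), no floor, a floor at percentile 30 or at percentile 70, averaging the log2 signals of probe sets before the floor, no x_at and s_at probe sets, and 1.5-fold and 3-fold thresholds. Calculations used Python 3.11.15, with matplotlib 3.10.9, statsmodels 0.14.6, scipy 1.17.1, pandas 2.3.3 and numpy 2.4.6, and were tested on simulated data.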

Additional observations from a re-analysis of the deposited data

Results flagged for a closer look

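Probe sets of 2 ABC pseudogenes, outside the 41 genes, had a signal above the floor with pDCs and below it alone. The ABCC13 pseudogene had 157.4 with pDCs and 88.3 alone on 1 of its 4 probe sets, and ABCA17P had 122.1 with pDCs and 94.0 alone. With 1 array per group these are values without an error.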

How the results depend on the processing

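With 1 array per group, no replicate could be left out. No paired analysis was possible because each group has 1 array. The scalings changed little: median centring gave 1 gene at least 2-fold lower with pDCs in place of 2, as ABCC1 had -0.97, and quantile normalization and loess each gave 2 genes higher and 3 lower, since ABCG1 passed. With a floor at the 30th percentile, 5 ABC genes were at least 2-fold higher and 4 lower, and 9 and 13 probe sets. Calls rose over all genes too, with 1502 higher and 1920 lower of 17536 above that floor. Medians were then -0.11 for the family, -0.63 for drug exporters, -0.60 for ABCC and -0.11 for ABCG. With a floor at the 70th percentile, 0 genes and 0 probe sets were higher, beside 187 of all 9824 genes above it. Medians were -0.10 for the family, -0.16 for other ABC genes, -0.10 for ABCB and -0.092 for ABCC. With no floor, 7 ABC genes were higher and 10 lower, and 13 and 28 probe sets. Over all 19775 genes, 2365 were then higher and 2776 lower. Medians with no floor were -0.12 for the family, -0.66 for drug exporters, -0.66 for ABCC and -0.10 for ABCG. The mean over probe sets gave 0 genes higher and 1 lower, beside 445 higher and 517 lower of all 11872 genes above the floor. The 1 lower was ABCG1 (-1.51), with ABCA1 (-0.80) and ABCC1 (-0.91) no longer past 2-fold. ABCC4 and ABCC9 had no ratio with that mean, and medians were -0.45 for ABCC and 0.66 for ABCD. The ABCD value was that of ABCD3 alone, whose second probe set had 145 with pDCs and 58.3 alone. Without x_at and s_at probe sets medians were 0.25 for drug exporters, -0.17 for ABCB, 0.17 for ABCC, 0.060 for ABCF and -0.89 for ABCG, and ABCB8 turned to 1.41 and ABCC9 to -0.26. At 1.5-fold, 3 genes were higher and 4 lower, and 5 probe sets were higher and 9 lower. At 3-fold, 0 genes passed in either direction, and 0 probe sets were higher and 2 lower. ABCB1, ABCC1 and ABCG2 alone had a median of -0.55, which rests on ABCC1 and ABCG2, since ABCB1 had no gene ratio. Causes were not tested, other than that floors and probe set choices change which signals enter. Over all genes, the scalings moved the median log2 ratio by less than 0.1. They called 478 to 495 of all genes above the floor higher and 574 to 596 lower. The probe set counts and the counts at 1.5-fold and 3-fold have no all-gene count beside them. Whether they differ from the share over all genes or probe sets was not tested. Signals near the floor limit ABCB1, ABCB5, ABCB9, ABCC9 and the minor probe sets of ABCC4.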

Other observations

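The other ABC probe sets outside the 41 genes added little. The pseudogene ABCA11P had 269 with pDCs and 233 alone. The probe set shared by ABCB1 and its neighbour ABCB4 had 111 with pDCs and 46.3 alone, below the floor on both arrays, while the ABCB1 probe set described above had 13.3 and 197. The probe set shared by ABCB8 and ASIC3 had 125 with pDCs and 200.4 alone.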
